A study of Mus musculus with 2 samples.

Results

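Chemokines are small secreted proteins that steer leukocytes by binding G protein-coupled receptors on them, and in the liver they are made largely by the nonparenchymal cells that line and surround the sinusoids. The chemokines described here are Cxcl12, Cxcl9, Cxcl10, Cxcl1, Cxcl2, Cxcl16, Ccl2, Ccl7, Ccl6 and Ccl9, a named list of 10 of the 31054 genes in the count matrices. They were measured by single-cell RNA-seq in hepatic stellate cell preparations from mice given carbon tetrachloride (CCl4), a hepatotoxin that causes fibrosis, for 4 weeks. The question was how elimination of p16-high hepatocytes, that is hepatocytes expressing the senescence marker p16, relates to the other liver cells. The p16-Alb-LRTD mice carry the reporter allele R26-CAG-LSL-RSR-tdTomato-2A-DTR together with the drivers p16-CreERT2 and Alb-DreERT2. The design places the diphtheria toxin (DT) receptor in cells where both recombinases have acted, and the Alb promoter directs the Dre recombinase to hepatocytes. The study names leaky expression of the receptor through the floxed stop as a possible limit of this dual model, which was not tested here. The p16-LRTD littermates, called control below, lacked Alb-DreERT2. All mice were heterozygous C57BL/6 males. Both groups received CCl4, tamoxifen and DT, and their age and the number of mice pooled per library are not given in the sources used here. There was 1 library per group, so no difference between the groups could be tested against the spread between animals, and every interval given covers counting error only. The preparations were enriched for stellate cells, and hepatocyte elimination was not checked in them. Hepatocyte markers summed to 1069.8 CPM (UMI counts scaled to a common library total) in control and 490.1 CPM in p16-Alb-LRTD barcodes that met no gate of the classes below, and to between 14.6 and 93.4 CPM in the classes themselves.

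Each chemokine was compared between the libraries within 3 classes of cells that were set by marker counts. Stellate cells were barcodes with at least 15 UMIs (unique molecular identifiers, each standing for 1 captured mRNA) of Lrat, Ecm1, Hgf and Reln per 10000, endothelial cells had at least 8 of Kdr, Stab2 and Ptprb per 10000, and Kupffer cells, the resident liver macrophages, had at least 8 of Clec4f, Cd5l, Vsig4 and Csf1r per 10000. The p16-LRTD library gave 7852 stellate, 430 endothelial and 283 Kupffer cells, and the p16-Alb-LRTD library gave 6621, 283 and 178. Median depth was close between the libraries in stellate cells (17024.5 and 18136 UMIs) and endothelial cells (11781 and 11992 UMIs), while the Kupffer cells of the p16-Alb-LRTD library were deeper (25101.5 against 19514 UMIs). Markers that did not enter the gates were highest in the class they belong to. The stellate markers Dcn, Colec11, Pdgfrb, Des, Rgs5 and Lhx2 summed to 24958 and 27641 CPM in stellate cells and to 447 and 349 CPM in endothelial cells, in p16-LRTD and p16-Alb-LRTD respectively. Barcodes that met more than 1 gate (245 and 221) were left out, and 194 and 113 barcodes met none. The libraries shared 95 barcode sequences, of which 20 and 22 lay in the 3 classes.

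Chemokines fall into groups by the receptor they bind. CXCL12 binds CXCR4 and the scavenging receptor ACKR3 and retains CXCR4-bearing cells in tissue niches. CXCL9 and CXCL10 are induced by interferons and draw activated T cells and NK cells through CXCR3, and CXCL1 and CXCL2 are induced by NF-kappaB and draw neutrophils through CXCR2. CXCL16 is a membrane-anchored ligand of CXCR6, CCL2 and CCL7 draw monocytes through CCR2, and CCL6 and CCL9 are macrophage-made ligands of CCR1.

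All but Cxcl12 of these genes lie on chromosomes 5 and 11 of GRCm38. On chromosome 5, Cxcl1 (chr5:90891241-90893115) and Cxcl2 (chr5:90903871-90905938) lie 10756 bp apart on the plus strand, and Cxcl9 (chr5:92321347-92328079) and Cxcl10 (chr5:92346638-92348889) lie on the minus strand. The 4 genes span 1.46 Mb. On chromosome 11 lie Cxcl16 (chr11:70453983-70459984), Ccl2 (chr11:82035571-82037453), Ccl7 (chr11:82045712-82047525), Ccl9 (chr11:83572919-83578636) and Ccl6 (chr11:83587882-83593087), while Cxcl12 stands alone on chromosome 6 (chr6:117168535-117181367). Cxcl10, Cxcl16, Ccl2 and Ccl6 overlap Art3, Zmynd15, Gm17268 and E230016K23Rik on the opposite strand, and the strand setting of the counting is not given in the sources used here.

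The stretches just before the start of the 4 chromosome 5 genes are printed because each of these genes was more than 1.5-fold higher in p16-Alb-LRTD in both stellate and Kupffer cells. They are RefSeq promoter sequences of GRCm38.p6, 5′ to 3′ on the gene's strand, for Cxcl9 (chr5:92328080-92328329, minus), Cxcl10 (chr5:92348890-92349139, minus), Cxcl1 (chr5:90890995-90891240, plus) and Cxcl2 (chr5:90903649-90903870, plus). Capitals mark letters that match a motif on either strand.
Cxcl9: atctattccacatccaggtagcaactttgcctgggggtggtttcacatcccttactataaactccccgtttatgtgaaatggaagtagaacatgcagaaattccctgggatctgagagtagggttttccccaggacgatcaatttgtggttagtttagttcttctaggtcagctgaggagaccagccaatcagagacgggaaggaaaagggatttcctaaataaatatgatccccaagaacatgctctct
Cxcl10: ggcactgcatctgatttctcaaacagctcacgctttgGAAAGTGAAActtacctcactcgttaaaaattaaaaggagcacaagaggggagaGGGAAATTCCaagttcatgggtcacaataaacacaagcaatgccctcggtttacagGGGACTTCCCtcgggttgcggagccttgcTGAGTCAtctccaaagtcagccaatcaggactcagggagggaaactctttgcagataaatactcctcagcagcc
Cxcl1: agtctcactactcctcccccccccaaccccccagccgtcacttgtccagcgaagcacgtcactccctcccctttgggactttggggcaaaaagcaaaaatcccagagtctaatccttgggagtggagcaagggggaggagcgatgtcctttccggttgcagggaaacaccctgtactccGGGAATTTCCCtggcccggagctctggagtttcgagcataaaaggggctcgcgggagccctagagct
Cxcl2: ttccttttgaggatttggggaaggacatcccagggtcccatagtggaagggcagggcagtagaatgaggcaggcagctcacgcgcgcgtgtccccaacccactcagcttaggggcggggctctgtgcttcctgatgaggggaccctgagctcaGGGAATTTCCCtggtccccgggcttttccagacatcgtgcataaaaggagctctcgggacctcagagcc
The motifs were searched on both strands, namely the NF-kappaB consensus, the interferon-stimulated response element (ISRE, here GAAA and a second GAAA separated by any 2 letters), the gamma-activated site (GAS, TTCNNNGAA) and the AP-1 site (TGANTCA). Cxcl1 held a pair of overlapping NF-kappaB matches from 71 to 61 bases before its RefSeq start. Cxcl2 held the same overlapping pair from 97 to 87 bases before its RefSeq start. For both genes the RefSeq start lies downstream of the gene start at which the printed stretch ends. The matches are therefore closer to the end of the printed stretch than these positions. Cxcl10 held NF-kappaB matches at 159 to 150 and at 103 to 94 bases before its start, an ISRE match at 213 to 204 and an AP-1 match at 74 to 68. No match to these letters lay in the stretch before Cxcl9. Of 32851 RefSeq promoter windows, 3.9% held the NF-kappaB letters in the 250 bases before the start. The shares were 2.98% for the ISRE letters, 7.02% for the GAS letters and 6.75% for the AP-1 letters. A match describes the letters and is not a measured binding site. Among the other chemokines with an entry, Ccl9 held 1 NF-kappaB and 1 AP-1 match, and Cxcl12 and Ccl6 held none. No entry was matched for Cxcl16, Ccl2 and Ccl7.

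The 10 chemokines were made by different cells. Stellate cells held 96.6% of all Cxcl12 UMIs in p16-LRTD and 96.5% in p16-Alb-LRTD, 85.4% and 84.9% of Cxcl10, 88.8% and 89.0% of Ccl2, 76.6% and 85.0% of Cxcl1, and 73.4% and 74.1% of Cxcl16. Because stellate cells were most of the cells, these shares follow cell number as well as the level per cell. Kupffer cells, though few, held 45.3% and 67.4% of Cxcl2, with 39.9% and 18.1% in barcodes that met no gate, and 44.5% and 49.5% of Ccl6. For Ccl9 the largest share, 55.9% and 60.4%, lay in the barcodes that met no gate. Cxcl9 was divided, with 38.1% and 17.9% in endothelial, 20.2% and 35.9% in stellate and 23.9% and 26.6% in Kupffer cells, so that the largest share lay in endothelial cells of p16-LRTD but in stellate cells of p16-Alb-LRTD.

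**Figure D1:**
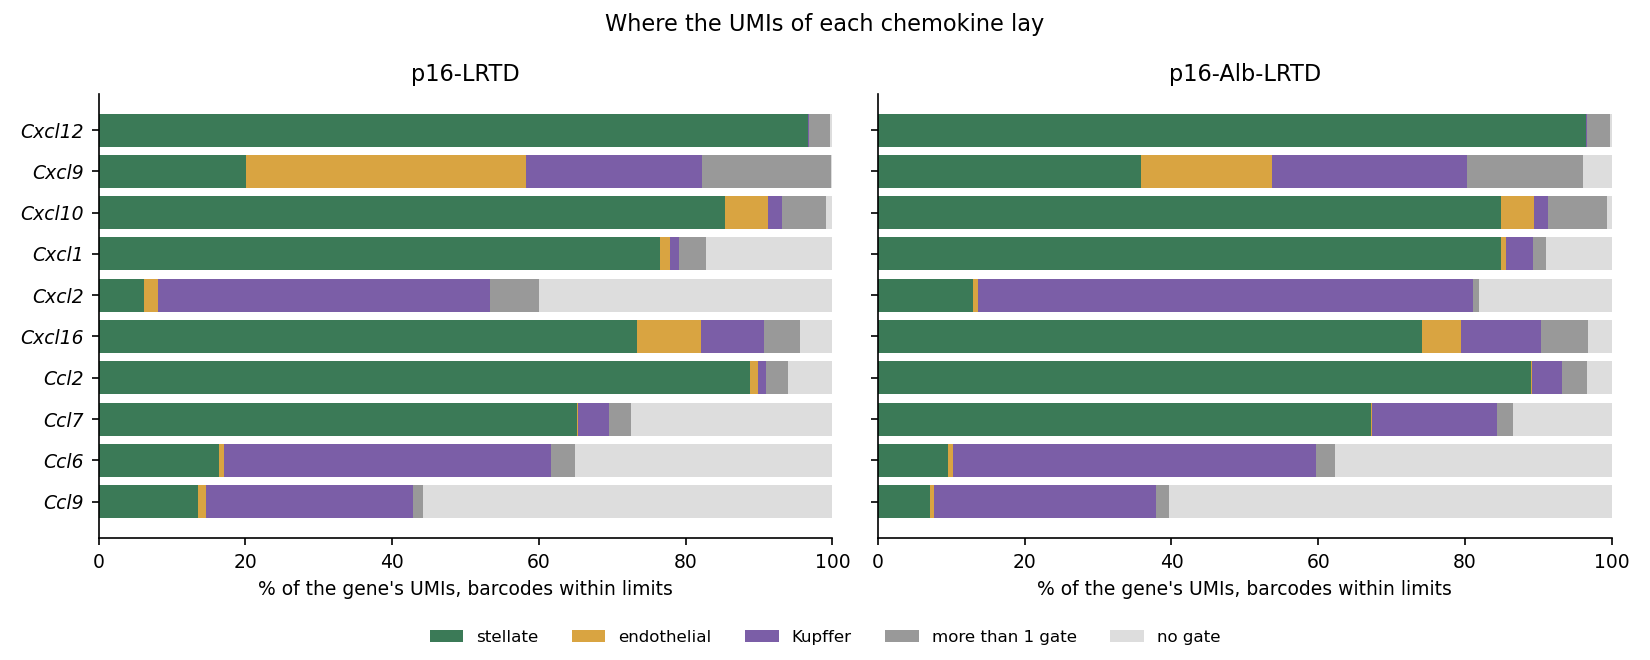
Share of each chemokine's UMIs (percent of the UMIs in barcodes within the limits) by class of cell, with 1 bar per library for each gene. Stellate cells hold most of Cxcl12, Cxcl10 and Ccl2, Kupffer cells hold the largest share of Cxcl2 and Ccl6, and barcodes that met no gate hold the largest share of Ccl9.

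Free mRNA and mixed barcodes carry UMIs of one class into another, and markers outside the gates gave a measure of how much. Stellate markers stood in endothelial cells at a median of 2.23% of their stellate level in p16-LRTD and 1.45% in p16-Alb-LRTD, and in Kupffer cells at 1.29% and 1.07%. Kupffer markers stood in stellate cells at 0.22% and 0.14% of their Kupffer level. Levels of a chemokine near these percentages cannot be told apart from such carry-over.

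Of the 10 chemokines, 5 were more than 1.5-fold higher and 2 more than 1.5-fold lower in p16-Alb-LRTD stellate cells (Ccl6 and Ccl9, the latter not in cells of 10000 to 30000 UMIs). Among the 16430 genes with at least 30 UMIs in stellate cells, 6.05% were as much higher and 9.62% as much lower. In Kupffer cells 6 of 10 were higher and 0 lower, against 5.91% higher and 8.97% lower of 10499 genes. In endothelial cells 9 had at least 30 UMIs, of which 1 was higher and 2 lower, against 7.02% higher and 15.5% lower of 10762 genes. The median log2 ratio (p16-Alb-LRTD over p16-LRTD) of the chemokines was 0.64 in stellate, 0.21 in endothelial and 1.66 in Kupffer cells, beside -0.06, -0.11 and -0.06 over all genes with enough UMIs. Cxcl10 alone passed 1.5-fold in every class. With TMM or median-of-ratios scaling, endothelial Cxcl9 (log2 ratios 0.63 and 0.65) and Cxcl2 (0.63 and 0.65) passed too, so that these 3 genes passed in every class, and endothelial Ccl9 no longer passed. The endothelial median changed sign with the processing and ranged from -0.40 with a mitochondrial limit of 10% to 0.41 in cells of 10000 to 30000 UMIs.

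At a 2-fold threshold the stellate count was 3 higher (Cxcl9, Cxcl10 and Cxcl2) and 0 lower, where 2.04% of genes were as much higher, 4.26% as much lower and 6.3% either. In endothelial cells 1 was higher (Cxcl10) and 1 lower (Ccl2), against 2.35%, 5.13% and 7.48%. All 6 Kupffer chemokines past 1.5-fold, Cxcl9, Cxcl10, Cxcl1, Cxcl2, Ccl2 and Ccl7, also passed 2-fold, against 2.04% of genes higher, 2.83% lower and 4.87% either.

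**Figure D2:**
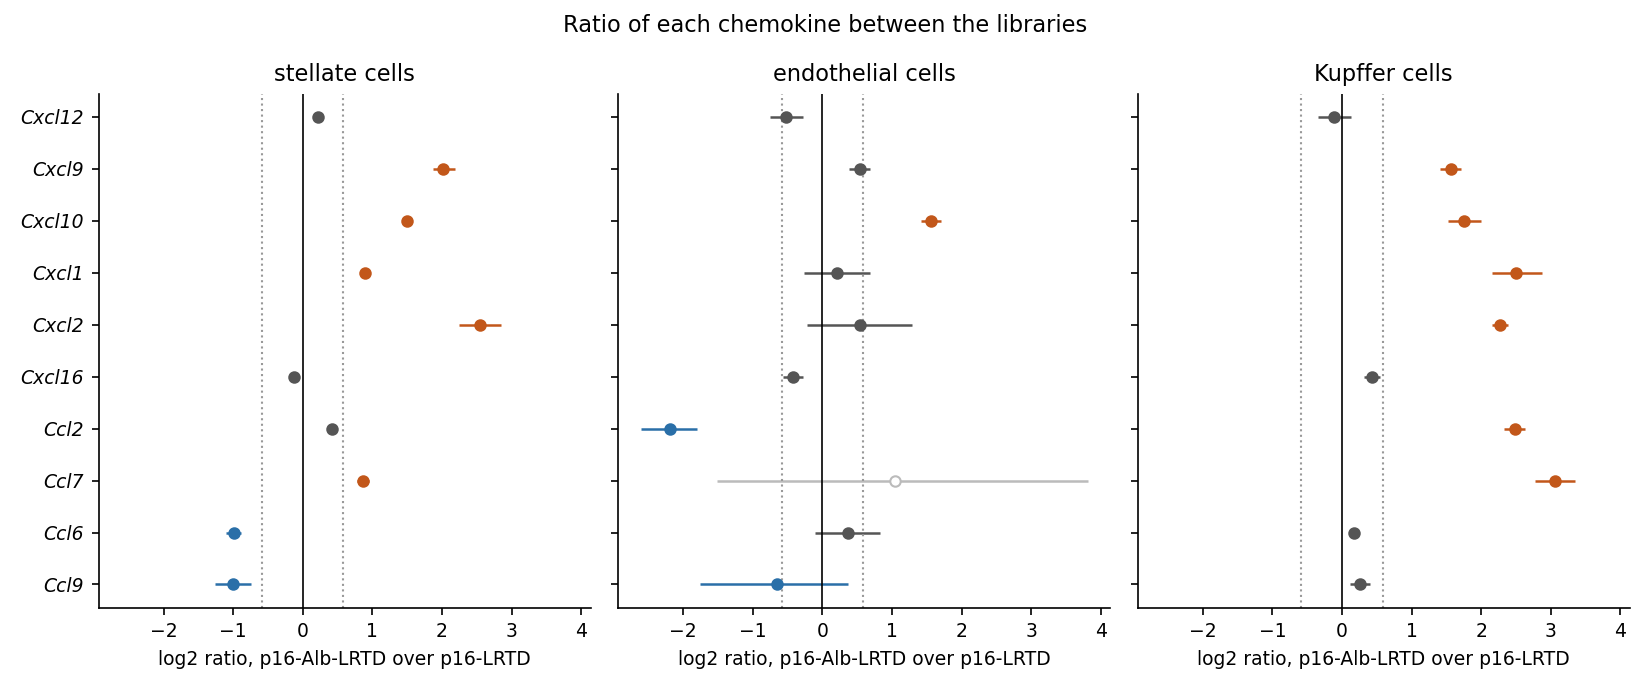
Log2 ratio of each chemokine (p16-Alb-LRTD over p16-LRTD) in each class of cell, with exact 95% intervals for counting error. The dotted lines mark 1.5-fold. Kupffer cells have 6 chemokines above the upper line and none below the lower line, Cxcl10 is above it in all 3 classes (as are Cxcl9 and Cxcl2 with TMM or median-of-ratios scaling), and Ccl2 lies at -2.19 in endothelial and at 2.48 in Kupffer cells.

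**Figure D3:**
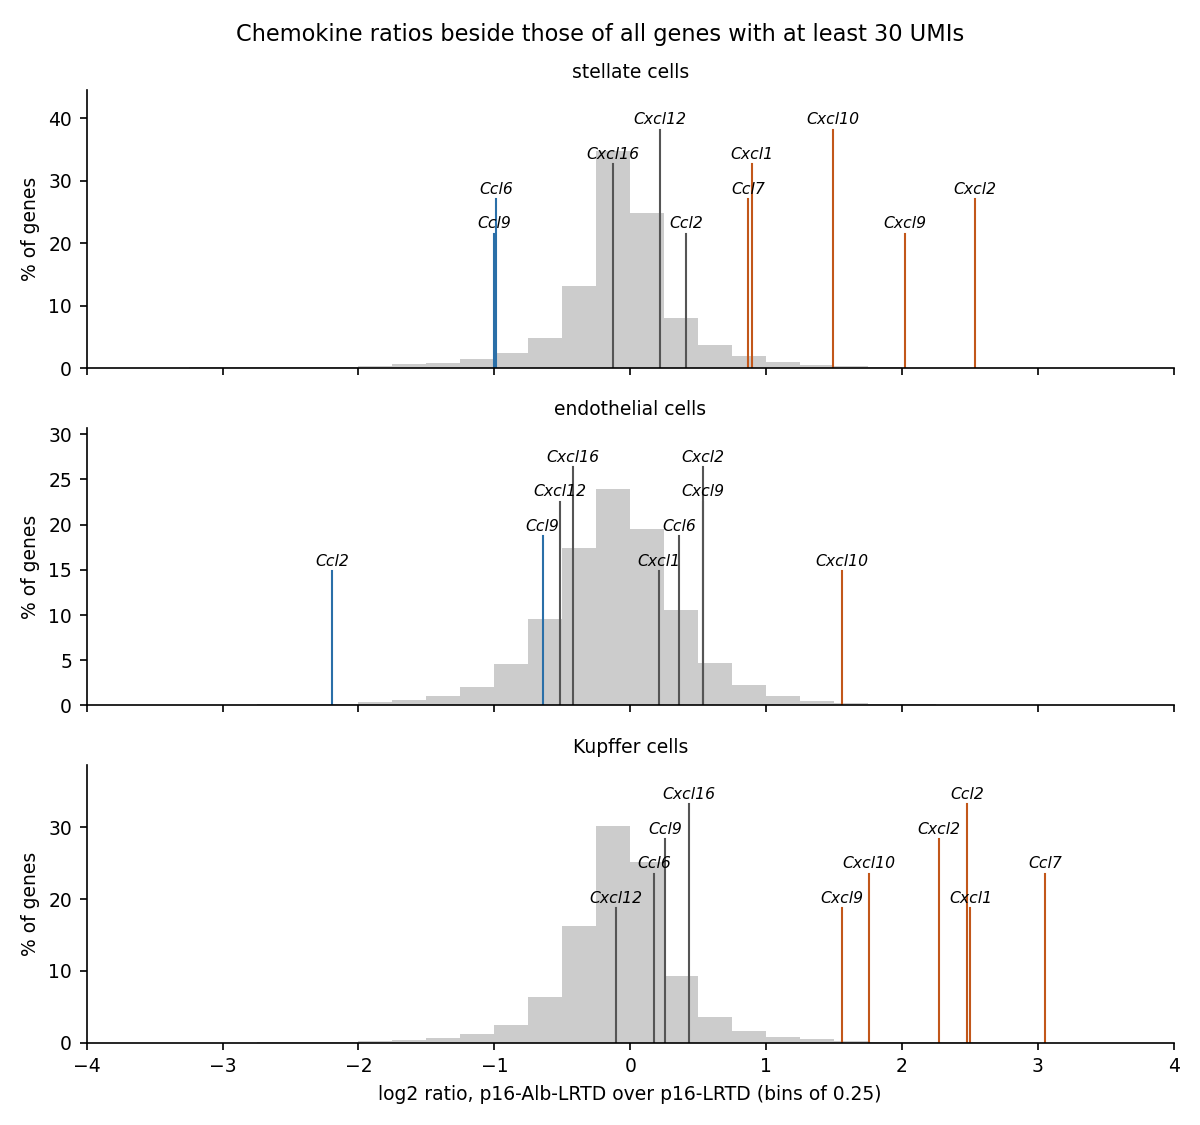
Distribution of log2 ratios over all genes with at least 30 UMIs in each class, with the chemokines marked in orange where more than 1.5-fold higher, in blue where more than 1.5-fold lower and otherwise in grey. The chemokine median is 0.64 in stellate, 0.21 in endothelial (from -0.40 to 0.41 under other processing) and 1.66 in Kupffer cells, beside medians of all genes between -0.11 and -0.06.

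CXCL12, the niche chemokine, was a marker-like product of stellate cells. Its level was 3014 CPM in control and 3513 CPM in p16-Alb-LRTD stellate cells, and 99.8% and 99.9% of stellate cells thinned to 5000 UMIs held at least 1 Cxcl12 UMI. The ratio was 1.17-fold, which is above 1 beyond counting error and within 1.5-fold. Endothelial cells stood at 78.0 and 54.5 CPM, that is 2.59% and 1.55% of the stellate level, and Kupffer cells at 58.0 and 53.9 CPM, that is 1.93% and 1.53%. These percentages lie within the range of the stellate markers carried into the same classes (1.64% to 2.98% and 1.16% to 2.18% in endothelial cells, 1.16% to 3.67% and 0.82% to 2.09% in Kupffer cells). One p16-LRTD endothelial cell held 95 of the 480 Cxcl12 UMIs, and without the single highest cell of each library the endothelial log2 ratio went from -0.52 to -0.26. It was 0.61, the other way, when barcodes meeting more than 1 gate were kept, and -0.69 with gates 1.5 times as high.

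Cxcl10, which encodes a CXCR3 ligand, was higher in p16-Alb-LRTD in all 3 classes, by 2.82-fold to 3.38-fold. In stellate cells it stood at 68.1 CPM (95% interval 66.8 to 69.5) in control and 191.9 CPM (189.5 to 194.3) in p16-Alb-LRTD, 2.82-fold apart. In endothelial cells the levels were 108.7 CPM (100.6 to 117.3) and 320.6 CPM (303.2 to 338.7), a 2.95-fold difference. In Kupffer cells they were 35.5 CPM (30.9 to 40.6) and 119.8 CPM (109.9 to 130.4), a 3.38-fold difference. The order of the classes was the same in both libraries, with endothelial cells highest and Kupffer cells lowest. The endothelial minus stellate difference of log2 ratios was 0.07, with an approximate counting interval of -0.07 to 0.21, and the Kupffer minus stellate difference was 0.26 (0.03 to 0.49). More cells held the mRNA as well. Of cells thinned to 5000 UMIs, 12.2% and 24.6% of stellate cells had a Cxcl10 UMI, as did 22.5% and 46.3% of endothelial cells. In Kupffer cells the shares were 7.19% and 13.0%, with overlapping intervals (4.45% to 10.9% and 8.42% to 18.9%). The stellate mRNA was uneven, the top 10% of cells holding 88.4% and 79.0% of its UMIs.

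Cxcl9, the other interferon-induced CXCR3 ligand on the list, was mainly an endothelial transcript in terms of cells. A Cxcl9 UMI was seen in 33.3% of control and 39.9% of p16-Alb-LRTD endothelial cells at 5000 UMIs, with levels of 129.2 and 187.3 CPM. That ratio of 1.45-fold (log2 0.54, interval 0.39 to 0.68) stayed just under the 1.5-fold threshold. In stellate cells Cxcl9 stood at 2.94 CPM (420 UMIs) and 11.9 CPM (1495 UMIs), 4.06-fold apart, and came from very few cells. Only 22 of 7836 and 49 of 6614 thinned stellate cells had a UMI, and the top 1% of cells held 100% and 97.5% of the UMIs. Stellate Cxcl9 was 2.28% and 6.38% of the endothelial level. Endothelial markers carried into stellate cells had a median of 0.23% and 0.20% and ranged up to 2.69% and 3.97%. The control level thus lies above the median and within the range of these markers, and the part of carry-over was not tested. In control, 1 stellate cell held 103 of the 420 UMIs. Kupffer cells were alike in this respect. Their levels were 83.9 and 247.7 CPM, 2.95-fold apart, but 1 cell held 399 of 499 UMIs in p16-LRTD and 1 cell held 413 of 1108 in p16-Alb-LRTD. Removing the highest cell of each library took the Kupffer log2 ratio from 1.56 to 3.21, so its direction held and its size did not. The endothelial and Kupffer levels overlapped across the libraries, and the stellate levels were below both.

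The neutrophil chemokines Cxcl1 and Cxcl2 differed in which class held the largest share of their UMIs. By level, Cxcl1 was higher in stellate than in Kupffer cells of control, but lower in those of p16-Alb-LRTD. Barcodes that met no gate stood higher still for Cxcl1, at 252 and 325 CPM. Cxcl1 stood at 35.2 CPM (34.2 to 36.1) in control and 65.6 CPM (64.1 to 67.0) in p16-Alb-LRTD stellate cells, 1.86-fold apart, and 10.8% and 16.2% of thinned cells had a UMI. In Kupffer cells Cxcl1 stood at 13.8 and 78.2 CPM, 5.67-fold apart, with a log2 ratio of 2.50 that ranged from 1.78 with gates 0.67 times as high to 3.87 without barcodes holding 2 or more UMIs of another gate per 10000. That Kupffer difference came from few cells, since 4.32% and 8.47% of them held a Cxcl1 UMI and the top 1% held 52.3% of the UMIs in p16-Alb-LRTD. Endothelial Cxcl1 rested on 88 and 66 UMIs (14.3 and 16.6 CPM) with a log2 ratio of 0.21 and an interval of -0.27 to 0.69.

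Among the 3 classes Cxcl2 was highest in Kupffer cells, while the barcodes that met no gate held 39.9% and 18.1% of its UMIs at 162 and 302 CPM. Its Kupffer level was 138.3 CPM (129.0 to 148.0) in control and 668.6 CPM (644.9 to 693.0) in p16-Alb-LRTD, 4.84-fold apart, and 21.2% and 39.0% of thinned Kupffer cells had a UMI, with intervals that did not overlap. One p16-Alb-LRTD Kupffer cell held 998 of 2991 UMIs, and without the highest cell of each library the log2 ratio was 1.80 in place of 2.27. In Kupffer cells of 10000 to 30000 UMIs it was 1.61. In stellate cells Cxcl2 rested on 113 UMIs (0.79 CPM) and 576 UMIs (4.6 CPM), which is 0.57% and 0.69% of the Kupffer level. Kupffer markers reached up to 0.61% and 0.49% of their own Kupffer level in stellate cells. Stellate Cxcl2 thus lay within the range of these markers in control and above it in p16-Alb-LRTD, and the part of carry-over was not tested. A single p16-Alb-LRTD stellate barcode held 169 of the 576 UMIs. Endothelial Cxcl2 had 33 and 31 UMIs, too few to give a direction (log2 ratio 0.54, interval -0.22 to 1.29, and -1.11 with barcodes meeting more than 1 gate kept).

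**Figure D4:**
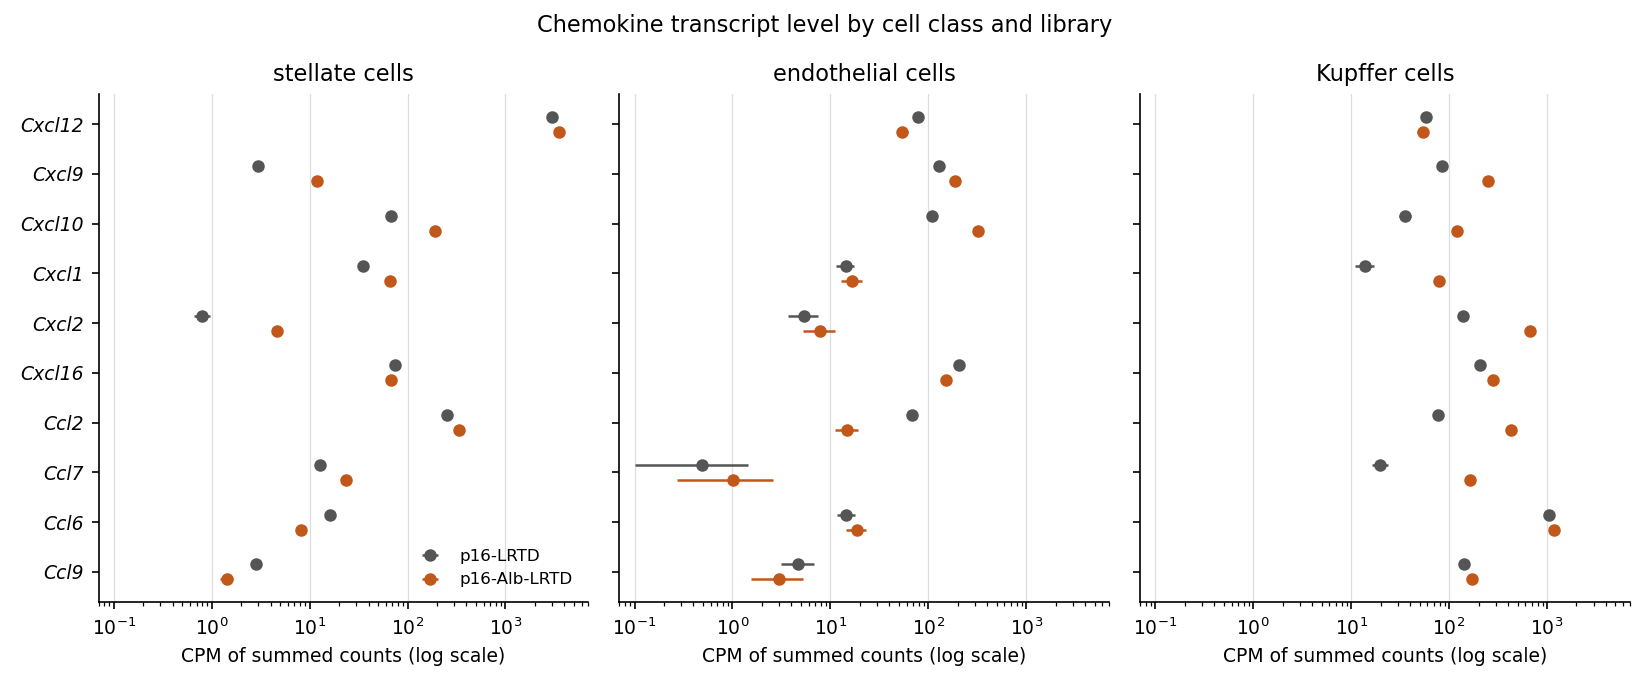
Level of each chemokine (CPM of summed UMIs, log axis) in each class of cell and library, with exact 95% Poisson intervals. Cxcl12 is highest in stellate cells (3014 and 3513 CPM), Cxcl2, Ccl6 and Ccl9 are highest in Kupffer cells, and Cxcl10 is higher in p16-Alb-LRTD in every class.

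Cxcl16, which encodes the CXCR6 ligand, was spread over all 3 classes, and no class passed 1.5-fold. In Kupffer cells of 10000 to 30000 UMIs, however, it passed 1.5-fold higher, at a log2 ratio of 0.66. Stellate levels were 73.8 and 67.7 CPM (log2 ratio -0.13), endothelial levels 204.1 and 152.6 CPM (-0.42) and Kupffer levels 207.1 and 279.9 CPM (0.43). The intervals lay below 0 in stellate and endothelial cells and above 0 in Kupffer cells. Thinned shares moved the same ways, from 29.9% to 27.6% of stellate, 63.6% to 49.8% of endothelial and 56.5% to 66.1% of Kupffer cells. Endothelial and Kupffer cells did not differ in p16-LRTD beyond counting error (192.9 to 215.7 and 195.7 to 219.0 CPM), and both were above stellate cells. Unlike the induced chemokines, Cxcl16 was even among cells, the top 1% of stellate cells holding 5.14% and 6.15% of its UMIs.

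Ccl2, which encodes the main monocyte chemoattractant, went in opposite directions in endothelial and Kupffer cells. In Kupffer cells it stood at 76.4 CPM (69.5 to 83.7) in control and 426.5 CPM (407.6 to 446.1) in p16-Alb-LRTD, 5.59-fold apart, and the share of thinned cells with a UMI was 19.8% and 44.1%. Without quality limits the Kupffer log2 ratio was 1.83 in place of 2.48. In endothelial cells it stood at 67.8 CPM (61.4 to 74.6) and 14.8 CPM (11.3 to 19.1), 4.57-fold lower in p16-Alb-LRTD. The endothelial value rested on few cells and on how barcodes were assigned. One p16-LRTD endothelial cell held 118 of 417 UMIs, the top 1% of cells held 60.7%, and 8.85% and 5.65% of thinned cells had a UMI, with overlapping intervals. When barcodes meeting more than 1 gate were kept, the endothelial log2 ratio went from -2.19 to 0.28. Endothelial Ccl2 was 27.1% of the stellate level in p16-LRTD, well above stellate marker carry-over (at most 2.98%), and 4.44% in p16-Alb-LRTD, against at most 2.18% for the markers.

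In stellate cells Ccl2 stood at 250.3 CPM (247.7 to 252.9) and 333.5 CPM (330.3 to 336.7), a 1.33-fold difference that did not pass 1.5-fold. The share of cells and the summed level went opposite ways. Of thinned stellate cells, 34.8% in p16-LRTD and 31.8% in p16-Alb-LRTD had a Ccl2 UMI, the median cell stood at 47.2 and 32.4 CPM, and the top 1% of cells held 24.3% and 34.9% of all Ccl2 UMIs. Stellate Ccl2 was thus more uneven in p16-Alb-LRTD, and with the top 1% of cells removed the log2 ratio was 0.19 in place of 0.41. No order of the libraries is read from the shares.

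Ccl7, the neighbour of Ccl2 and a ligand of the same receptor, was higher in both stellate and Kupffer cells. Stellate levels were 12.8 CPM (12.2 to 13.4) and 23.3 CPM (22.5 to 24.2), 1.82-fold apart, with a UMI in 3.56% and 4.46% of thinned cells. Kupffer levels were 19.8 CPM (16.4 to 23.8) and 165.0 CPM (153.3 to 177.3), 8.31-fold apart. In the main processing that was the largest ratio among the 10 chemokines with at least 30 UMIs in a class. Without the 1% of cells with the highest CPM, Kupffer Cxcl9 had a larger log2 ratio, 5.42. The log2 ratio of Kupffer Ccl7 went from 3.06 to 2.10 without quality limits. Its share of thinned Kupffer cells was 6.47% and 22.6%, with intervals that did not overlap. In endothelial cells only 3 and 4 Ccl7 UMIs were seen, and no ratio is given.

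The CCR1 ligands Ccl6 and Ccl9 were highest in Kupffer cells among the 3 classes and did not pass 1.5-fold there. Ccl6 stood at 1048 CPM in control and 1184 CPM in p16-Alb-LRTD Kupffer cells, with a UMI in 91.0% and 92.7% of thinned cells. Without the highest cell of each library, which in p16-Alb-LRTD held 801 UMIs, its Kupffer log2 ratio was 0.0027 in place of 0.18. Ccl9 stood at 143.0 and 170.6 CPM in Kupffer cells (log2 ratio 0.25, interval 0.11 to 0.40), at -0.04 without the highest cell of each library, and past 1.5-fold higher under 2 alternatives, at 0.60 in cells of 10000 to 30000 UMIs and 0.80 without barcodes holding 2 or more UMIs of another gate per 10000. Both genes were lower in p16-Alb-LRTD stellate cells. Ccl6 there was 16.2 CPM (15.5 to 16.8) and 8.14 CPM (7.65 to 8.66), 1.99-fold lower, with a UMI in 7.78% and 3.81% of thinned cells. Ccl9 was 2.86 CPM (408 UMIs) and 1.43 CPM (179 UMIs), 2.0-fold lower, with 98 of the 408 UMIs in 1 cell. In stellate cells of 10000 to 30000 UMIs the Ccl9 log2 ratio was -0.36, within 1.5-fold. Stellate Ccl6 was 1.54% and 0.69% of its Kupffer level and stellate Ccl9 2.0% and 0.84%, above the highest Kupffer marker carried into stellate cells in each library (0.61% and 0.49%). Other Kupffer markers were also lower in p16-Alb-LRTD stellate cells, their sum going from 29.0 to 22.1 CPM, and the part of carry-over in the Ccl6 and Ccl9 difference was not tested. Endothelial Ccl6 stood at 14.5 and 18.6 CPM, with 43 of 74 UMIs of p16-Alb-LRTD in 1 cell. Its log2 ratio of 0.36 turned to -0.96 without barcodes holding 2 or more UMIs of another gate per 10000, and no direction is read from it. Endothelial Ccl9 had 29 and 12 UMIs, 10 of those 12 in 1 cell, and although its ratio passed 1.5-fold lower, the interval (-1.75 to 0.37) includes no difference.

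Several of the inducible chemokines were seen in the same stellate cells. In p16-LRTD, 61.3% of thinned stellate cells with a Ccl7 UMI also had a Ccl2 UMI, against 33.8% of those without, and in p16-Alb-LRTD the shares were 72.5% and 29.9%. A Cxcl10 UMI went with Ccl2 in 57.2% against 31.7% of cells in p16-LRTD and in 48.0% against 26.6% in p16-Alb-LRTD. For Cxcl1 the shares with Ccl2 were 44.7% against 33.6% and 46.3% against 29.0%. Cxcl16 showed little of this, at 35.8% against 34.4% and 33.8% against 31.1%. Cxcl2-positive stellate cells had Ccl2 in 28.6% against 34.8% in p16-LRTD, on 21 such cells, and in 62.7% against 31.6% in p16-Alb-LRTD, on 59. Ccl9-positive stellate cells had Ccl2 in 32.9% against 34.8% and in 15.7% against 32.0%. In Kupffer cells Ccl7 was seen in 16.4% of Ccl2-positive against 4.04% of Ccl2-negative cells of p16-LRTD, and in 41.0% against 8.08% in p16-Alb-LRTD. In endothelial cells Cxcl10 was seen in 29.5% of Cxcl9-positive against 19.0% of Cxcl9-negative cells in p16-LRTD and in 54.9% against 40.6% in p16-Alb-LRTD. Cells of 1 library are not replicates, so these shares describe the libraries.

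**Figure D5:**
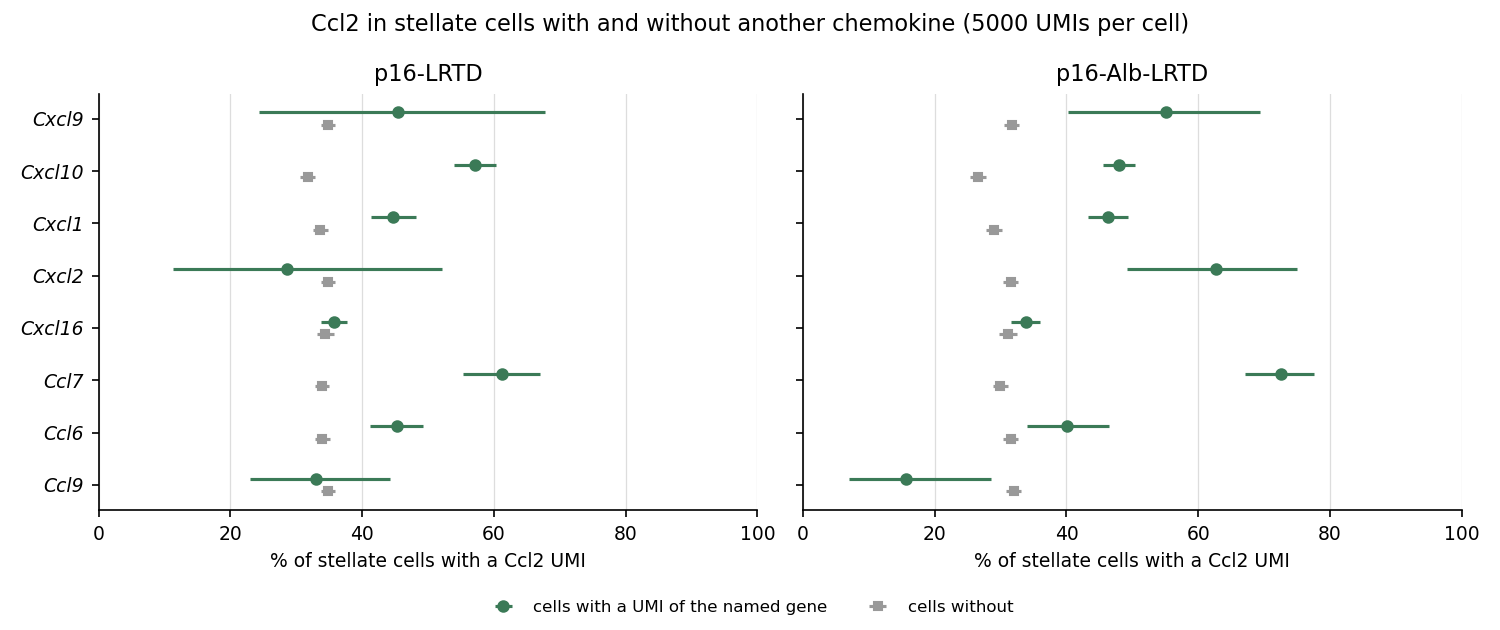
Share of stellate cells, thinned to 5000 UMIs, with a Ccl2 UMI among cells with and without a UMI of each other chemokine, with exact 95% binomial intervals, for each library. Cells with Ccl7, Cxcl10, Cxcl1 or Ccl6 have Ccl2 more often in both libraries, and cells with Cxcl16 differ little from those without.

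Stellate cells of the libraries also differed in collagen mRNA. Cells with at least 100 UMIs of Col1a1, Col1a2 and Col3a1 per 10000 made up 22.7% of control and 2.75% of p16-Alb-LRTD stellate cells, and 734 and 185 cells lay near that boundary. Ccl2 was lower in the high-collagen range, at 79.3 and 128.4 CPM, than in the low-collagen range, at 313.6 and 339.6 CPM. Within the low-collagen range the Ccl2 log2 ratio was 0.11, against 0.41 over all stellate cells. In the high-collagen range it was 0.70, which is past 1.5-fold. Cxcl10 had a log2 ratio of 0.97 in the high and 1.30 in the low range, and Cxcl9 had 2.19 and 2.12. Cxcl1 (0.58) and Ccl7 (0.55) were just under 1.5-fold in the high range and past it in the low range (0.97 and 0.93). Cxcl2 had 33 and 4 UMIs in the high range, with a log2 ratio of 0.36 and an interval of -1.60 to 1.85, and 2.61 in the low range. Ccl6 and Ccl9 were lower in the low-collagen range (-1.26 and -1.24), while in the high range their log2 ratios were 0.11 and -0.08, with intervals that span 0 on 27 and 5 UMIs of p16-Alb-LRTD.

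Other genes of the pathways were described from lists. Of 20 listed interferon target genes, 16 were more than 1.5-fold higher in stellate, 12 in endothelial and 18 in Kupffer cells of p16-Alb-LRTD, beside 6.05%, 7.02% and 5.91% of all genes, and 0 were lower, beside 9.62%, 15.5% and 8.97%. Their summed level was 1620 and 2877 CPM in stellate, 1684 and 2363 CPM in endothelial and 1433 and 3165 CPM in Kupffer cells. Examples are Rsad2, an antiviral enzyme, at log2 ratios of 1.75 in stellate and 1.76 in endothelial cells, Irf7, an interferon-regulating transcription factor, at 1.40 in both, and Isg15, a ubiquitin-like modifier, at 1.88 in Kupffer cells.

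Counts of NF-kappaB target genes were as follows. Of 20 with enough UMIs in Kupffer cells, 14 were higher and 0 lower, beside 5.91% and 8.97% of all genes. They include Tnf, an inflammatory cytokine, at a log2 ratio of 3.74 with 207 of 553 p16-Alb-LRTD UMIs in 1 cell, and Il6, another cytokine, at 1.26. In stellate cells 5 of 20 were higher and 0 lower, beside 6.05% and 9.62% of all genes, among them Tnfaip3, an inhibitor of NF-kappaB signalling, at 1.19 and Birc3, an inhibitor of apoptosis, at 0.84. In endothelial cells 2 of 18 were higher, the adhesion molecule Vcam1 (0.94) and the atypical inhibitor of NF-kappaB Nfkbiz (0.95), and 3 were lower, Tnfaip2 (-1.94), Tnf (-1.65) and Nfkbie (-0.62). Over all endothelial genes 7.02% were higher and 15.5% lower, so the lower count is near the background.

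Genes that respond to cell dissociation and stress were listed too. Of 15 immediate-early and heat-shock genes, 7 were more than 1.5-fold higher in stellate, 12 in endothelial and 5 in Kupffer cells of p16-Alb-LRTD, beside 6.05%, 7.02% and 5.91% of all genes, and 0 were lower, beside 9.62%, 15.5% and 8.97%. Their sum was 8501 and 12702 CPM in stellate, 4308 and 7538 CPM in endothelial and 5532 and 7059 CPM in Kupffer cells. The heat-shock gene Hspa1b had log2 ratios of 1.72, 3.00 and 2.78. The part of dissociation in the chemokine differences was not tested. Markers of infiltrating monocytes and macrophages, another source of chemokines, summed to 1357 and 603 CPM in the Kupffer class, to 47.3 and 117 CPM in the endothelial class, and neutrophil markers to 70.0 and 68.4 CPM in the Kupffer class. The endothelial sums rested on few cells. In p16-Alb-LRTD a single cell held 137 of 168 Arg1 UMIs and a single cell 230 of 257 Spp1 UMIs. In control a single cell held 107 of 146 Gpnmb UMIs. Within the monocyte and macrophage list Gpnmb, a gene of lipid-associated macrophages, stood at 716.9 and 108.9 CPM in Kupffer cells, and Chil3, a gene of monocytes, at 3.87 and 30.2 CPM, with 108 of the 135 p16-Alb-LRTD UMIs in 1 cell. Their part in the Kupffer differences was not tested.

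Of the other chemokine genes, 20 had at least 30 UMIs in stellate cells, with 6 higher and 5 lower, 3 in endothelial cells, with 1 higher and 1 lower, and 11 in Kupffer cells, with 6 higher and 1 lower. These counts stand beside 6.05% of all genes higher and 9.62% lower in stellate, 7.02% and 15.5% in endothelial and 5.91% and 8.97% in Kupffer cells. Kupffer examples are Ccl5, a chemoattractant of T cells, at a log2 ratio of 4.07 on 8 and 101 UMIs, and the CCR2 ligand Ccl12 at 1.76 on 38 and 97 UMIs. Ccl8, another CC chemokine, had a log2 ratio of 1.90 on 10 and 28 UMIs from 5 and 5 cells, with 16 of the 28 in 1 cell. Cxcl14 was lower at -1.99. Several of the stellate values came from a single cell. For Ccl1, 507 of the 512 UMIs of p16-Alb-LRTD lay in 1 cell, and for Xcl1 164 of 167. Lower in stellate cells were Ccl28 (-1.70, on 37 and 10 UMIs), Cxcl13 (-1.70, on 573 and 155) and Ccl17 (-1.45, on 25 and 8). Stellate Cxcl13 was seen in 100 control and 94 p16-Alb-LRTD cells, and 1 control cell held 152 of its 573 UMIs. In Kupffer cells Cxcl13 was higher, at 68.8 and 191.6 CPM (1.48).

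Chemokine receptors were few in these classes. In stellate cells 14 had at least 30 UMIs, with 2 higher and 3 lower, beside 6.05% and 9.62% of all genes. In endothelial cells 1 of 7 was higher and 1 lower (7.02% and 15.5% of all genes), and in Kupffer cells 1 of 8 was higher and 2 lower (5.91% and 8.97%). Among the stellate receptors, Ackr3, the scavenging receptor of CXCL12, stood at 30.2 CPM in control and 14.9 CPM in p16-Alb-LRTD (log2 ratio -1.02), and Ackr4, a scavenger of CC chemokines, was lower in the same cells at -0.62. The fractalkine receptor Cx3cr1 was higher in stellate cells (5.14 and 13.1 CPM) and endothelial cells (17.4 and 27.1 CPM) and lower in Kupffer cells (43.2 and 11.4 CPM). Cxcr4, the signalling receptor of CXCL12, was 7.15 and 1.51 CPM in endothelial cells on 44 and 6 UMIs and 35.8 and 65.5 CPM in Kupffer cells. Ccr3, an eosinophil receptor for CC chemokines, was lower in Kupffer cells (63.9 and 21.9 CPM). The stellate Ccr2 value, 42 and 2 UMIs, had 32 of the 42 UMIs in 1 cell, and in Kupffer cells Ccr2 had 51 and 29 UMIs.

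The genes whose levels were most like each chemokine were ranked by Pearson's r over 6 values, the 3 classes in 2 libraries, among 8803 genes outside the lists. These points share libraries and cell classes, and for a gene restricted to 1 class many genes reach a high r. For Cxcl12, 244 genes had r above 0.99, led by Acaa2 (a mitochondrial thiolase), and for Ccl6, 187 genes, among them Spi1 (the transcription factor PU.1 of myeloid cells). Patterns set by library as well as class had fewer matches. Cxcl10 was most like Sp100, a nuclear body protein (r = 0.977), Cxcl1 most like Rcsd1 (0.911), Cxcl2 most like Ell2, a transcription elongation factor (0.997), and Ccl7 most like Sod2, the mitochondrial superoxide dismutase (0.986).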

How the data were processed

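Single-cell RNA-seq of hepatic stellate cell preparations (pronase and collagenase perfusion, Nycodenz gradient, 10x Genomics 3′ v3.1 chemistry) was analysed in 2 libraries, 1 for p16-LRTD and 1 for p16-Alb-LRTD. The deposited values are raw UMI counts per gene and barcode, which the authors made with Cell Ranger 7.0.1 against mm10. The annotation release and the use of intronic reads are not given in the sources used here. The chemokines, gates and gene lists were chosen with earlier results of these data known.

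Barcodes within the limits of the study were kept (mitochondrial share of at most 5%, 2000 to 7000 genes, at most 50000 UMIs). They numbered 9004 of 11149 and 7416 of 8806. A class held barcodes that met exactly 1 gate. No doublet caller was run, and doublets were handled only by the upper limits and by leaving out barcodes that met more than 1 gate. Counts were summed per class and library and given as CPM with exact Poisson 95% intervals. Ratios had exact conditional intervals and shares exact Clopper-Pearson intervals, all for counting error only. With 1 library per group no test was made, and a difference was called when it passed 1.5-fold in a gene with at least 30 UMIs over both libraries. Shares of cells with a UMI were taken after thinning each cell to 5000 UMIs, which left out 16 and 7 stellate, 12 and 0 endothelial and 5 and 1 Kupffer cells as shallower. All 10 chemokines were named, and from each list up to 3 genes per direction and class with the largest ratios past 1.5-fold, among genes with at least 30 UMIs. Ccr2 and Cxcl13 in Kupffer cells were named after their values were seen. For each chemokine the 3 genes outside the lists with the highest Pearson's r of log2(CPM + 1) were ranked, among genes of at least 20 CPM in a class and library. Scripts were checked on simulated data.

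Python 3.11.15, NumPy 2.4.6, pandas 2.3.3, SciPy 1.17.1 and Matplotlib 3.10.9 were used, with scaling alternatives from edgeR 4.0.16 (TMM) and DESeq2 1.42.0 (median of ratios) in R 4.3.3. Promoters came from RefSeq windows of GRCm38.p6, with 7 of 10 genes matched. The windows hold 250 bases before and 50 bases after the RefSeq start, and the printed stretches end before the gene start of GENCODE vM21. One listed gene, Cxcl11, was not in the matrices. Alternatives tried were other limits, gates, depth ranges, scalings, thresholds and the removal of the highest cells.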

Additional observations from a re-analysis of the deposited data

Results flagged for a closer look

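The log2 ratio of Ccl2 (p16-Alb-LRTD over p16-LRTD) was 2.48 in Kupffer cells and -2.19 in endothelial cells, a difference of 4.68 with an approximate counting interval of 4.26 to 5.10. It was singled out because the classes lay past 1.5-fold on opposite sides. The difference was not tested, since there was 1 library per group. With barcodes meeting more than 1 gate kept, the endothelial log2 ratio was 0.28.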

How the results depend on the processing

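No paired analysis was possible because each group had 1 library, and for the same reason no replicate could be left out. The number of chemokines past 1.5-fold kept within 1.5 times its value under every alternative except keeping barcodes of more than 1 gate, which gave 5 in endothelial cells (3 higher and 2 lower) in place of 3, and a 2-fold threshold, which gave 3 in stellate cells in place of 7. The stellate median log2 ratio, 0.64, was 0.70 without quality limits, 0.50 as a mean of per-cell CPM, 0.55 without the 1% of cells with the highest CPM, 0.70 with TMM or the median of ratios, and 0.52 in low-collagen cells. The endothelial median, 0.21, was -0.39 without quality limits and -0.40 with a mitochondrial limit of 10%. The Kupffer median, 1.66, was 1.41 with gates 1.5 times as high, 1.41 in cells of 10000 to 30000 UMIs and 1.42 without Csf1r in the gate. Ccl2 in endothelial cells turned to 0.28 (1460 and 1632 UMIs) with barcodes of more than 1 gate kept, and was -2.57 in the 201 and 77 endothelial cells with under 2 UMIs of another gate per 10000. Of 405 log2 ratios of single chemokines under alternatives, 341 kept their reading. For called ratios this means past 1.5-fold on the same side, whatever the size of the move. For the others it means within the counting interval and not newly past 1.5-fold. A further 44, not called at first, moved outside that interval without a new call. Of the rest, 15 passed and 4 no longer passed 1.5-fold, and 1 that had passed turned. Among called ratios the log2 value ranged widely for Cxcl9 (1.2 to 5.42), Cxcl10 (1.21 to 2.01), Cxcl1 (1.78 to 3.87), Cxcl2 (1.61 to 2.73), Ccl2 (1.83 to 2.72) and Ccl7 (2.10 to 3.38) in Kupffer cells and for Cxcl2 (1.60 to 3.55) in stellate cells. The 4 were Ccl9 in stellate cells of 10000 to 30000 UMIs (-0.36) and Ccl9 in endothelial cells under 3 alternatives. Relative to total counts, TMM and the median of ratios shifted all ratios by 0.05 to 0.11, and in endothelial cells the share of higher genes among those past 1.5-fold went from 31.2% to 44.7% and 46.3%, with 3 chemokines higher and 1 lower. Low-collagen cells, the gate without Csf1r, the removal of shared barcode sequences and of the single highest cell were chosen after seeing the data. The causes of these movements were not tested.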

Other observations

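Barcodes that met no gate, 194 in p16-LRTD and 113 in p16-Alb-LRTD, held high levels of several chemokines. Ccl6 stood there at 1100.0 and 1518 CPM, Ccl9 at 375 and 571 CPM and Ccl2 at 545 and 588 CPM. Cxcl9 had 3 UMIs in p16-LRTD and 164 in p16-Alb-LRTD. Markers of infiltrating monocytes and macrophages summed in these barcodes to 3202 and 4241 CPM and fibroblast and mesothelial markers to 3934 and 3622 CPM. These barcodes hold several kinds of cell and were not compared further.

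The quality limits removed unequal shares of the classes. Of barcodes that met the Kupffer gate, 322 in p16-LRTD and 226 in p16-Alb-LRTD (53.2% and 55.9%) lay outside the limits, and of those that met the endothelial gate 313 and 154 (42.1% and 35.2%). Depth limits what can be said of Cxcl2, Ccl7 and Ccl9 in endothelial cells, which had between 3 and 33 UMIs per library.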
